A study of Sus scrofa with 30 samples.

Results

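The histone marks H3K4me3 and H3K27me3, trimethylation of lysine 4 and of lysine 27 on histone H3, were examined at 7 pig genes that encode H3K4 demethylases or their close relatives, KDM5A, KDM5B, KDM5C, KDM1A, KDM1B, KDM2A and KDM2B. These genes were listed by name, by a rule that uses no measured value but was written with earlier results of these data known, and all were found among the 19484 protein-coding genes annotated on chromosomes 1 to 18 and X. The marks had been profiled by native chromatin immunoprecipitation adapted to very small cell numbers (ULI-NChIP-seq), in 15 groups of 2 libraries each. The tested embryos were 4-cell embryos grown from zygotes injected with small interfering RNA against both KDM5B and KDM5C (siKDM5BC), and untreated 4-cell embryos were their control. Untreated H3K4me3 libraries covered 8 stages, namely oocytes at germinal vesicle (GV) stage and in metaphase II (MII), embryos of 1, 2, 4 and 8 cells, morulae and blastocysts, all embryos being made by in vitro fertilisation. H3K27me3 libraries covered 6 of these stages, all but GV oocyte and 1-cell embryo. No control siRNA group was labelled, so the injection itself and the loss of the targets cannot be told apart. The siKDM5BC libraries were also numbered apart from the untreated ones in the series. Any difference in preparation or processing between them cannot be told apart from the treatment either. Transcripts were not measured, so the knockdown itself has no check in these data. The labels give neither the number of cells per library nor the breed, and they do not say whether the paired libraries came from separate collections, so a p-value here reflects no more than how far such libraries differ, which may be technical.

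H3K4me3 marks active and poised promoters, and it is laid down by complexes built around KMT2 and SETD1 enzymes. KDM5A, KDM5B and KDM5C are Jumonji-type oxygenases that strip it from trimethylated and dimethylated lysine. KDM1A and KDM1B are flavin-dependent oxidases that act on the lower methylation states, and KDM2A and KDM2B bind unmethylated CpG islands and are known mainly as H3K36 demethylases. Broad H3K4me3 domains laid down in the oocyte are lost in early mouse embryos, a step in which the KDM5 enzymes take part.

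The quantity given for each gene is the length, in base pairs (bp), covered by called peaks within 5 kb of either gene end, a total window of 20002 bp for every one of the 7. The gene table used gives no strand, so the ends are called lower-coordinate and upper-coordinate. Covered length measures how far a mark extends in a peak list and not how strong it is, and in pooled embryos a mark on fewer cells and a weaker mark in each cell cannot be told apart. Lists held 37481 to 119878 peaks and covered 31.6 to 179 Mb in the H3K4me3 libraries, and 2358 to 80700 peaks over 1.28 to 109 Mb in the H3K27me3 libraries. Both siKDM5BC lists were long in covered length, at 179 and 164 Mb, against 56.4 and 31.6 Mb in the untreated 4-cell lists. Read depth is not in the lists. The share of peaks with a −log10 q of 3 or more lay between 0.206% and 1.1% in the MII, 1-cell and 2-cell lists and between 10.8% and 52.6% in all other H3K4me3 lists. Stage marker genes separated the stages by H3K4me3 length only in part, and not always in the direction of their names. The trophectoderm gene CDX2 had 11119 and 11322 bp in blastocysts and 12100 and 10782 bp in GV oocytes, and the oocyte gene GDF9 had 4532 and 3884 bp in blastocysts and 5190 and 2527 bp in GV oocytes. The oocyte gene ZP3 had 4023 and 5196 bp in siKDM5BC embryos, 3369 and 2845 bp in GV oocytes and 0 in all untreated 4-cell and blastocyst libraries. BMP15, another oocyte gene, had 4156 and 2896 bp in GV oocytes, 1452 and 827 bp in blastocysts and 0 in all 4-cell libraries. POU5F1 was longer in blastocysts (6807 and 7180 bp) than in GV oocytes (4671 and 3824 bp). The trophectoderm gene GATA3 was shorter in blastocysts (2984 and 4237 bp) than in GV oocytes (8317 and 5447 bp).

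All 7 genes carried H3K4me3 in both libraries at 6 of the 8 stages and in siKDM5BC embryos. The exceptions were 1 MII library without a peak at KDM2B, and 1 of the 1-cell libraries without a peak at KDM5C or KDM1B. For comparison, 72.6% (MII oocyte) to 82.8% (morula) of all coding genes were covered in both libraries of an untreated stage, and 84.4% in siKDM5BC embryos. In a limma F test across the 8 stages, 51.5% of the 18191 genes tested changed (9368 genes, Benjamini-Hochberg adjusted p under 0.05), and 4 of the 7 demethylase genes did, KDM5C, KDM5B, KDM1A and KDM2B. That share is near the background, so a change across stages did not set these genes apart.

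**Figure D1:**
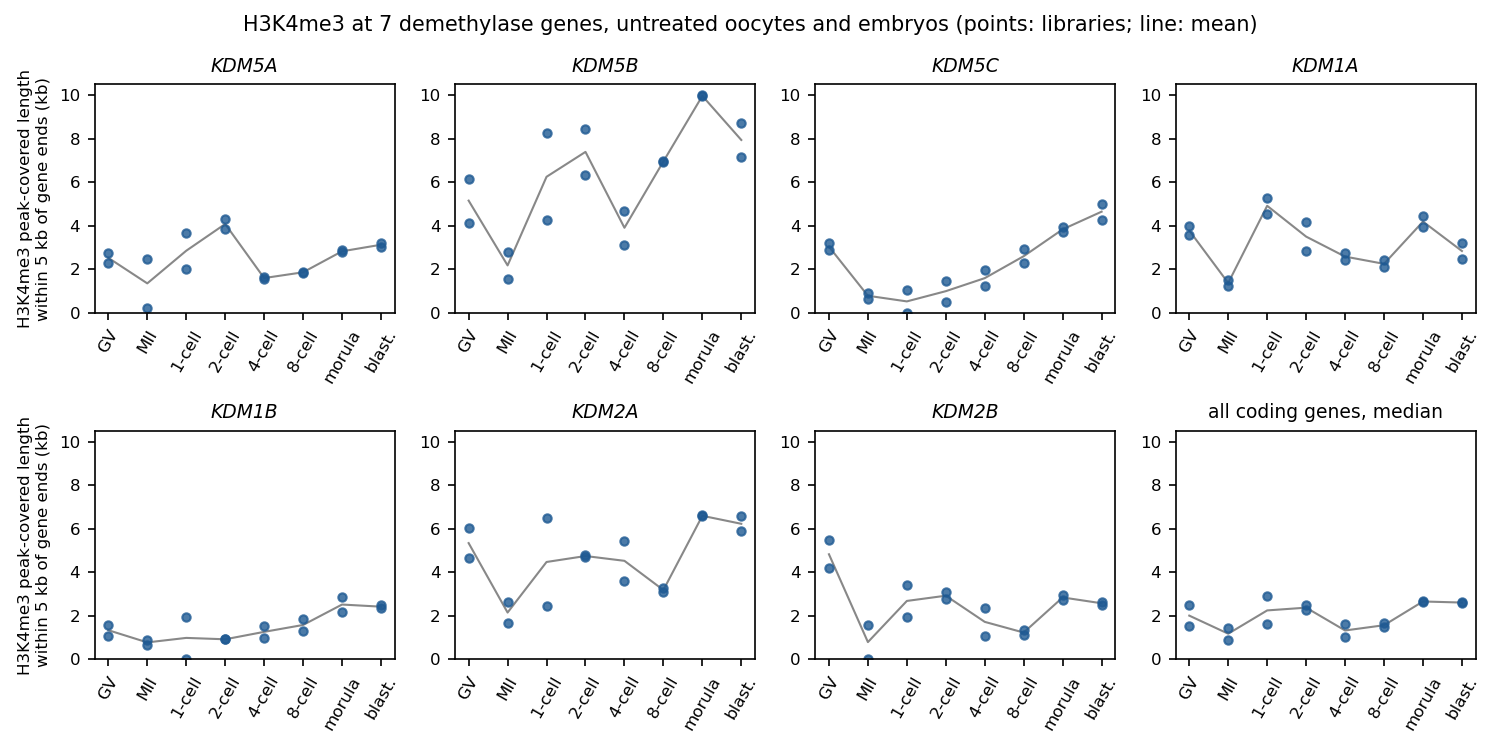
H3K4me3 peak-covered length within 5 kb of the gene ends (y axis, kb) at each untreated stage (x axis) for the 7 demethylase genes and, in the last panel, the median over all coding genes. Points are libraries, 2 per stage, and lines join stage means. KDM5B reached 9949 and 10001 bp in morulae, and KDM5C was lowest in 1-cell embryos at 0 and 1030 bp.

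KDM5B (gene 102163404, chromosome 10, 24739115 to 24831537) encodes a demethylase that is known in mouse embryonic stem cells for keeping promoter H3K4me3 narrow. By stage mean it had the longest H3K4me3 of the 7 genes at 6 of the 8 stages, KDM2A being longer in GV oocytes and 4-cell embryos. It was covered over 6172 and 4137 bp in GV oocytes, 1566 and 2778 bp in MII oocytes, 4250 and 8253 bp in 1-cell and 8454 and 6342 bp in 2-cell embryos. It was covered over 4689 and 3121 bp in 4-cell embryos, 6933 and 6984 bp in 8-cell embryos, 10001 and 9949 bp in morulae and 8726 and 7167 bp in blastocysts. MII libraries were the lowest and morula libraries the highest, with no overlap between them, and the change across stages passed the limma F test (adjusted p = 0.0100). In the order of stage means, morula lay above blastocyst without overlap and 4-cell above MII oocyte without overlap. The stages between, which were blastocyst, 2-cell, 8-cell, 1-cell, GV oocyte and 4-cell, each overlapped their neighbour in that order. In both morula libraries KDM5B had more covered length than 98.1% or more of coding genes.

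Nearly all of this H3K4me3 lay at the upper-coordinate end. The lower-coordinate window was empty in all GV, MII, untreated 4-cell, 8-cell, morula and blastocyst libraries and held 978 to 2196 bp in the 1-cell and 2-cell libraries. In the siKDM5BC libraries it held 1681 and 303 bp. No other annotated gene ends within 5 kb of KDM5B. The nearest coding gene beyond its upper end, LOC102163530 (chromosome 10, 24837776 to 24843533), starts after a gap of 6238 bp.

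KDM5C (gene 100037295, chromosome X, 45968812 to 46003215) encodes the X-linked KDM5 enzyme, which is known for escape from X inactivation in human and mouse. Its H3K4me3 spanned 3209 and 2859 bp in GV oocytes, 638 and 911 bp in MII oocytes, 0 and 1030 bp in 1-cell embryos and 498 and 1474 bp in 2-cell embryos. It spanned 1215 and 1957 bp in 4-cell embryos, 2277 and 2916 bp in 8-cell embryos, 3723 and 3941 bp in morulae and 5008 and 4284 bp in blastocysts. GV libraries lay above every library from the MII to the 4-cell stage, and blastocyst libraries lay above all others. The limma F test gave an adjusted p of 0.00806, the lowest of the 7, and it stayed under 0.05 in each of the 28 alternative settings tried. By stage means the order ran blastocyst, morula, GV oocyte, 8-cell, 4-cell, 2-cell, MII and 1-cell. Among neighbours in that order, GV oocyte against 8-cell and every pair from 4-cell downward overlapped.

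KDM5A (gene 100294704, chromosome 5, 67628791 to 67716143), the founding member of the KDM5 family, encodes a partner of the retinoblastoma protein. Its stage values were 2286 and 2755 bp (GV), 204 and 2486 bp (MII), 3678 and 2016 bp (1-cell), 4320 and 3837 bp (2-cell), 1544 and 1636 bp (4-cell), 1825 and 1886 bp (8-cell), 2776 and 2867 bp (morula) and 3042 and 3205 bp (blastocyst). Its 2-cell libraries were the highest, but the MII pair differed widely and the limma F test did not pass (adjusted p = 0.178). Leaving out MII replicate 2 leaves that stage on 1 library, at 204 bp, so no call is read from that setting. The lncRNA gene LOC102165305 overlaps the upper end of KDM5A, where every library had a peak, and peaks there cannot be assigned to one of the pair. Its lower end was covered in both libraries at the 2-cell stage and in blastocysts only.

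KDM1A (gene 100127157, chromosome 6, 80903407 to 80971875) encodes LSD1, the oxidase of the CoREST repressor complex. It was covered over 3987 and 3563 bp in GV oocytes, 1491 and 1236 bp in MII oocytes, 4555 and 5277 bp in 1-cell and 4162 and 2834 bp in 2-cell embryos. It was covered over 2419 and 2737 bp in 4-cell embryos, 2090 and 2398 bp in 8-cell embryos, 4447 and 3930 bp in morulae and 2452 and 3217 bp in blastocysts. MII libraries were below all others and 1-cell libraries above all others (limma F test, adjusted p = 0.0131). At the upper end, within reach of LUZP1, the 1-cell and 2-cell libraries held 312 to 1520 bp, and in the other untreated libraries that window was empty. TEX46 ends 4452 bp beyond the lower end, where the main KDM1A peak lay.

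KDM1B (gene 100158047, chromosome 7, 13846283 to 13902912) encodes LSD2, known in the mouse oocyte for the H3K4 demethylation that precedes maternal imprinting. Its H3K4me3 was short in most libraries, with 1576 and 1083 bp in GV oocytes, 665 and 871 bp in MII oocytes, 0 and 1951 bp in 1-cell and 902 and 921 bp in 2-cell embryos. It had 1519 and 988 bp in 4-cell embryos, 1297 and 1844 bp in 8-cell embryos, 2853 and 2169 bp in morulae and 2479 and 2348 bp in blastocysts. Morula and blastocyst libraries were above all earlier ones, but the limma F test did not pass (adjusted p = 0.257), with the 1-cell libraries furthest apart. It just passed without 1-cell replicate 1 and also passed without 1-cell replicate 2, settings in which a larger share of all genes passed too. TPMT lies 175 bp beyond the lower end of KDM1B, so the peak there cannot be assigned to one of them.

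KDM2A (gene 100294703, chromosome 2, 5238690 to 5357799), a CpG-island-binding demethylase gene, was the one member with peaks at both ends in every library. Its H3K4me3 spanned 6023 and 4657 bp in GV oocytes, 1658 and 2628 bp in MII oocytes, 2427 and 6514 bp in 1-cell and 4805 and 4684 bp in 2-cell embryos. It spanned 5440 and 3607 bp in 4-cell embryos, 3081 and 3277 bp in 8-cell embryos, 6624 and 6569 bp in morulae and 5882 and 6575 bp in blastocysts. The mean was highest in morulae, whose libraries overlapped those of blastocysts, and lowest in MII oocytes, and most neighbours in the order overlapped (limma F test, adjusted p = 0.0649). Without 1-cell replicate 1 or without 1-cell replicate 2 KDM2A passed, and a larger share of all genes passed then too.

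KDM2B (gene 100512074, chromosome 14, 31057121 to 31203093) encodes the CpG-island-binding subunit that brings the variant Polycomb complex PRC1.1 to chromatin. RNF34 overlaps its upper-coordinate end, where only 1-cell and 2-cell libraries had peaks. Both KDM2B ends together carried 5474 and 4177 bp of H3K4me3 in GV oocytes, 0 and 1565 bp in MII oocytes, 1928 and 3426 bp in 1-cell and 3070 and 2766 bp in 2-cell embryos. They carried 2368 and 1059 bp in 4-cell embryos, 1331 and 1112 bp in 8-cell embryos, 2704 and 2972 bp in morulae and 2635 and 2504 bp in blastocysts. KDM2B was the member whose GV libraries lay above all its later libraries. The adjusted p of the limma F test, 0.0481, was just under the threshold, and 15 of 28 alternative settings lost the call, among them windows of 2.5 kb (0.124) and leaving out either GV library (0.106 without replicate 1, 0.0809 without replicate 2).

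By the width of the widest single peak, KDM5B led the members at most stages. A peak of 5 kb or wider met its windows in both libraries at the 1-cell (5904 and 9172 bp), 8-cell (8580 and 8839 bp), morula (12258 and 12043 bp) and blastocyst stage (10460 and 9012 bp). KDM2A joined it in morulae with 5226 and 5160 bp, and no other gene of the 7 had such a peak in both libraries of any group. The share of all coding genes with a peak this wide in both libraries was 1.82% in GV oocytes, 0.375% in MII oocytes, 1.01% in 1-cell, 1.90% in 2-cell, 0.595% in 4-cell and 1.86% in 8-cell embryos, 10.9% in morulae and 13.1% in blastocysts. The 1-cell count depended on the peak definition, since with a −log10 q of 3 or more no member had a wide peak there, and with peaks less than 3 kb apart joined there were 2, KDM5B and KDM1A. Joining also gave wide peaks at KDM5B and KDM2B in GV oocytes and at KDM5B in MII oocytes and 2-cell embryos. With joining, the share of all coding genes was higher too, at 12.03% in GV oocytes, 10.9% in MII oocytes, 15.7% in 1-cell and 30.5% in 2-cell embryos.

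**Figure D2:**
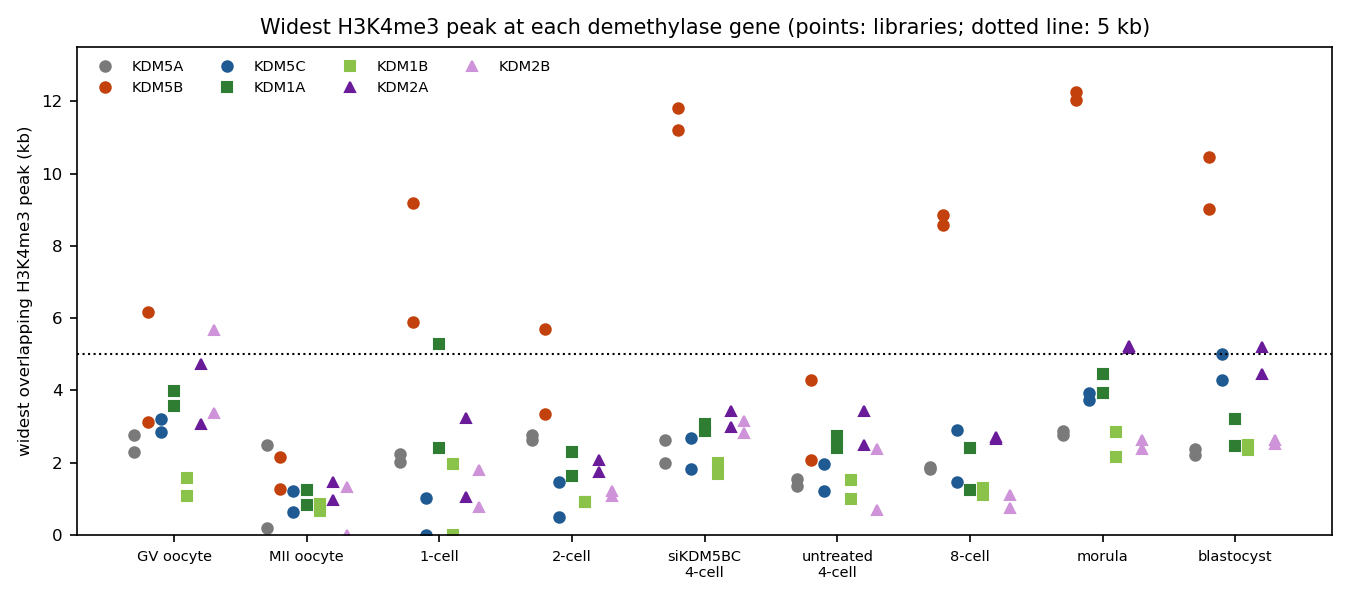
Width of the widest H3K4me3 peak overlapping the windows of each gene (y axis, kb) in each group (x axis), with 1 point per library and a dotted line at 5 kb. KDM5B lies at 8580 bp or wider in both libraries of the siKDM5BC, 8-cell, morula and blastocyst groups, and at 4285 and 2083 bp in untreated 4-cell embryos.

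The siKDM5BC libraries bear on H3K4me3 at the 4-cell stage when both enzymes are targeted. No demethylase gene passed the test of siKDM5BC against untreated 4-cell embryos, while 30.8% of the 18229 genes tested did, 5588 of them rising and 27 falling (limma, adjusted p under 0.05). Scaled to each library's total covered length, 535 genes rose and 3453 fell. At an unadjusted p under 0.05, limma called 1 of the 7, KDM5B, and 8281 of the 18229 genes, so that call does not set KDM5B apart. KDM5B was covered over 6512 and 7208 bp in siKDM5BC embryos, against 4689 and 3121 bp in untreated embryos. Of this, the upper-coordinate end alone held 4831 and 6905 bp in siKDM5BC, against 4689 and 3121 bp in untreated embryos. Neither the sums nor the upper-end values overlapped between groups, and the log2 difference of the sums was 0.76 (SE 0.345, 95% interval 0.02 to 1.5, limma adjusted p = 0.101). Leaving out either 1-cell library, which enters the shared estimate of spread, put KDM5B just past the threshold. A larger share of all genes was called in those settings too.

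KDM5C, the other target, was covered over 2676 and 1837 bp in siKDM5BC embryos, against 1215 and 1957 bp in untreated embryos. The groups overlapped, with a log2 difference of 0.41 (95% interval −0.64 to 1.45, limma adjusted p = 0.511). KDM5A, the KDM5 gene that was not targeted, had 2641 and 1988 bp in siKDM5BC and 1544 and 1636 bp in untreated embryos, a log2 difference of 0.42 (95% interval −0.66 to 1.5, limma adjusted p = 0.513). The intervals of both allow no change as well as a rise of the size seen over all genes.

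KDM2B had 3167 and 2810 bp in siKDM5BC embryos, against 2368 and 1059 bp in untreated embryos, a log2 difference of 0.72 (95% interval −0.41 to 1.85). KDM1B had 1994 and 1679 bp in siKDM5BC, against 1519 and 988 bp in untreated embryos, a difference of 0.43 (−0.76 to 1.62). KDM1A had 3391 and 2864 bp in siKDM5BC, against 2419 and 2737 bp in untreated embryos, a difference of 0.24 (−0.37 to 0.84). At KDM2A, with 5562 and 4598 bp in siKDM5BC and 5440 and 3607 bp in untreated embryos, the groups overlapped and the difference was 0.17 (−0.62 to 0.96). Both siKDM5BC libraries lay above both untreated ones at 5 of the 7 genes, all but KDM5C and KDM2A. The same held for 75.7% of all genes tested, and the opposite order, held by 0.642% of genes, was seen at none of the 7.

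All 7 log2 differences were above 0 and all 7 were below the median over all genes tested, 0.90, with a median over the members of 0.42. Only the interval of KDM1A, which ended at 0.84, left out that median. Dividing by each library's total covered length turned all 7 differences negative, from −0.93 for KDM2B to −1.68 for KDM2A, with KDM2A, KDM1A and KDM5B called lower beside 21.9% of all genes called in either direction, and moved the median of all genes by −1.47 to −0.58. All 7 genes were still below the median of all genes with that scaling. When a −log10 q of 3 was required of a peak, 3 of the 7 lay below the median and KDM1B and KDM5C were called higher. The untreated KDM1B peaks, at −log10 q of 2.94 and 2.98, fell just under that cut and counted as 0. So did the KDM5C peak of untreated replicate 2, at 2.66. In that setting 17.6% of all genes tested were called, 2770 of them higher and 73 lower. Without untreated 4-cell replicate 2, the shorter of the untreated lists, 637 genes passed and KDM2A turned to −0.10. An exact permutation test over 2 libraries against 2 cannot give a two-sided p below 0.333.

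**Figure D3:**
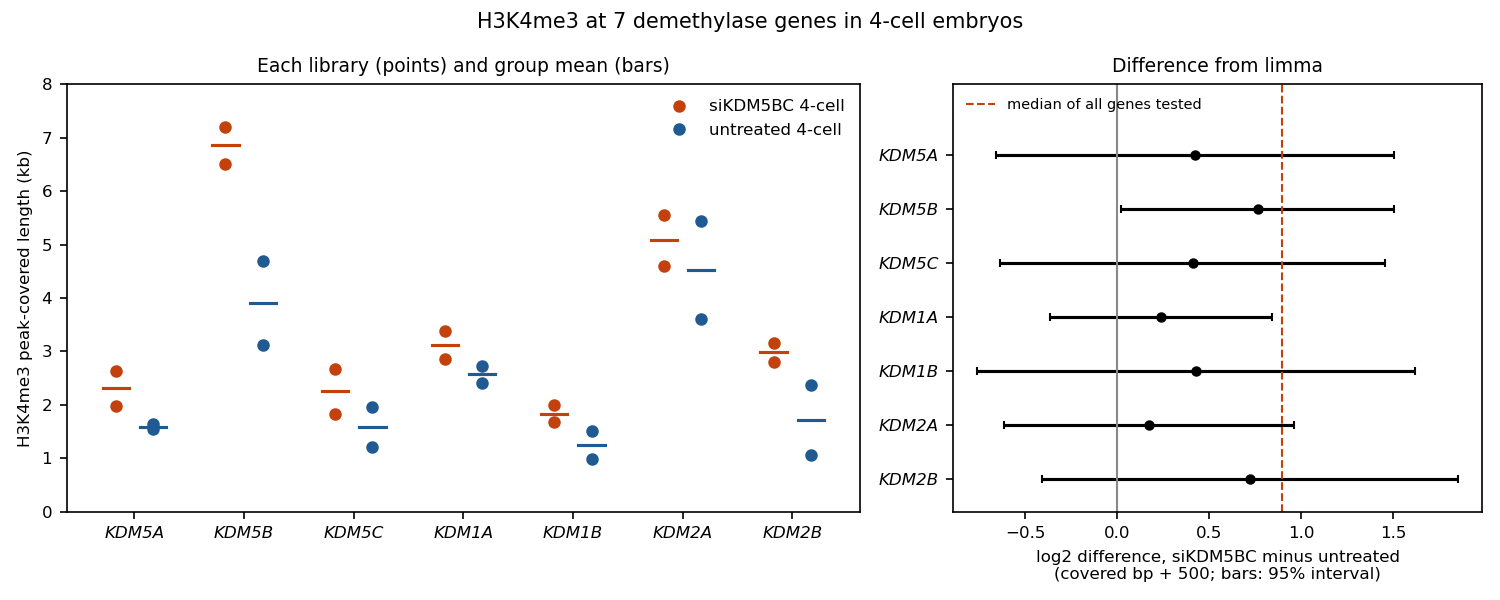
Left, H3K4me3 peak-covered length (y axis, kb) of each gene in siKDM5BC and untreated 4-cell embryos, with points for libraries and bars for means. Right, the log2 difference, siKDM5BC minus untreated (x axis), with its 95% interval and a dashed line at the median of all genes, 0.90. Every point estimate lies between 0.17 and 0.76, left of the dashed line.

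The peaks at the upper end of KDM5B differed in reach. In siKDM5BC embryos the widest peaks overlapping its windows were 11820 and 11198 bp, against 4285 and 2083 bp in untreated 4-cell embryos. These peaks extended 13745 and 9293 bp beyond the gene end in siKDM5BC libraries, against 3993 bp in both untreated libraries, of which replicate 1 had a further peak of 1308 bp beyond. In siKDM5BC replicate 1 the 11820 bp peak began 1926 bp beyond the gene end and a separate peak of 1756 bp spanned that end, while in replicate 2 the peak of 11198 bp spanned the end itself. The siKDM5BC peaks reached into LOC102163530 or across it, so that their width is not that of KDM5B alone. In 8-cell embryos, morulae and blastocysts 1 peak spanned the gene end in each library and extended 6647 to 7094 bp beyond it, just past the start of that neighbour. A peak of 5 kb or wider was found at 1 of the 7 genes in siKDM5BC embryos and at none in untreated 4-cell embryos, while the share of all coding genes was 15.0% in siKDM5BC and 0.595% in untreated 4-cell embryos. With peaks under 3 kb apart joined, the mean widest peak at KDM5B was 25247 bp in siKDM5BC, against 6613 bp in untreated embryos.

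**Figure D4:**
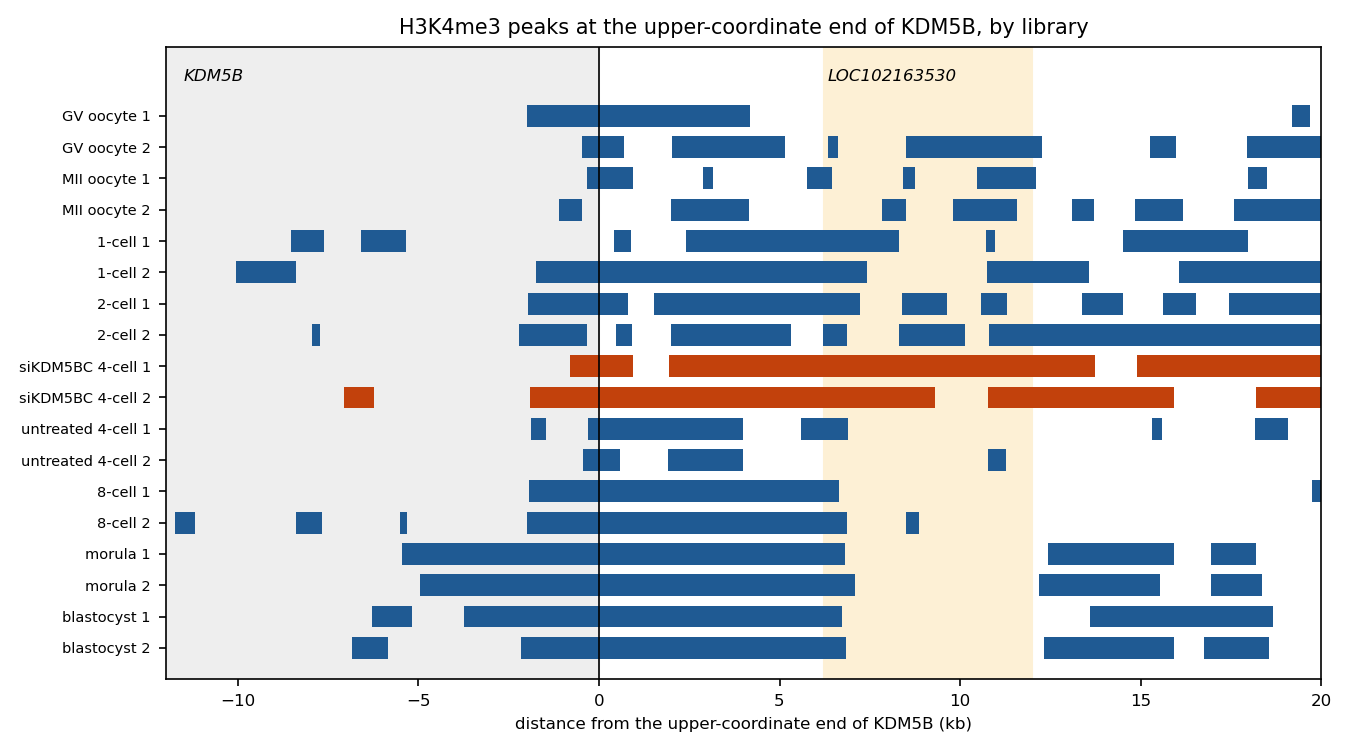
H3K4me3 peaks (bars) in each library (rows) by distance in kb from the upper-coordinate end of KDM5B (x axis); the gene lies to the left of 0, and the shaded strip on the right is LOC102163530. Peaks of the siKDM5BC libraries reach 13745 and 9293 bp beyond the end, the widest of the untreated 4-cell libraries stop at 3993 bp, with short separate peaks further out, and the widest from the 8-cell stage on reach 6647 to 7094 bp.

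The step to the 4-cell stage, in which the major wave of pig genome activation falls, was compared with the stage before it. None of the 7 genes passed (limma, adjusted p), against 12.7% of all genes tested (72 rose and 2249 fell). These directions turned over in other settings, with 3159 genes rising and 567 falling when scaled, and 6717 rising and 2 falling with a −log10 q of 3 or more. At an unadjusted p under 0.05 limma called 2 of the 7, KDM5A and KDM5B, and 5451 of the 18229 genes, a like share. KDM5A had 1544 and 1636 bp in 4-cell embryos, against 4320 and 3837 bp in 2-cell embryos, a log2 difference of −1.13 (SE 0.504, 95% interval −2.21 to −0.05, limma adjusted p = 0.149). KDM5B had 4689 and 3121 bp in 4-cell embryos, against 8454 and 6342 bp in 2-cell embryos, a difference of −0.85 (95% interval −1.59 to −0.11, limma adjusted p = 0.116). Neither gene's groups overlapped. KDM5A passed when either MII library, which enters the shared spread, was left out, and a larger share of all genes passed then too.

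Both 4-cell libraries lay below both 2-cell libraries at 4 of the 7 genes, KDM5A, KDM5B, KDM1A and KDM2B, and at 50.4% of all genes. KDM1B was the one member with both 4-cell libraries above both 2-cell libraries (1519 and 988 bp, against 902 and 921 bp), an order found at 5.24% of all genes, and its log2 difference was 0.30 (95% interval −0.89 to 1.49). KDM5C had 1215 and 1957 bp in 4-cell embryos, against 498 and 1474 bp in 2-cell embryos, and its difference of 0.55 (95% interval −0.50 to 1.59) was larger than that of 94.5% of genes. Its interval left out the median over all genes, −0.56, and did not leave out 0. The same untreated 4-cell libraries entered this comparison and the one with siKDM5BC embryos, so the 2 are not independent. The directions rested on peak calling. With −log10 q of 3 or more KDM2A, KDM5A, KDM1A and KDM5B were called higher in 4-cell embryos, at log2 differences of 1.96 to 3.07. In that setting 41.5% of the 16192 genes tested were called, 6717 of them higher, and the median over all genes was 1.38. None of the 7 had a peak with −log10 q of 3 or more in any 2-cell library, against 6 and 5 of the 7 in the 4-cell libraries. Scaled to covered length, all 7 differences were positive and the median of all genes moved by 1.04, to 0.48.

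H3K27me3, the mark of Polycomb repressive complex PRC2, was nearly absent from the ends of these genes. No member was covered in both libraries of MII oocytes, 2-cell, 4-cell or 8-cell embryos or morulae, and 1 of 7, KDM2A, in blastocysts. The matching shares of all coding genes were 18.3% in MII oocytes, 0.472% in 2-cell, 9.97% in 4-cell and 3.72% in 8-cell embryos, 7.23% in morulae and 32.5% in blastocysts. KDM2A had 348 and 477 bp in the blastocyst libraries and 0 in the other 10. Those peaks were the faintest their lists held, with −log10 q of 1.11 and 1.01, equal to the lists' lowest values. Across the 6 stages 65.3% of the 10519 genes tested changed. Only KDM2A and KDM2B were covered in 2 or more libraries and could be tested, and KDM2B did not pass (limma F test, adjusted p = 0.538). KDM2A met that filter only through its blastocyst libraries. Its limma F test (adjusted p = 0.000265) therefore adds no support to those values. A permutation test of the same F for KDM2A gave a p of 0.0906. With 2 covered libraries of 12 that test could give hardly less, so it decides nothing. Without either blastocyst library, or with a −log10 q of 3 or more, the gene could not be tested. KDM5B (416 bp) and KDM2B (216 bp) had short peaks in 1 MII library, and KDM5C (250 bp), KDM1A (252 bp) and KDM2B (336 bp) in 1 blastocyst library each. KDM2A in blastocysts was the 1 case of both marks in both libraries, against 28.8% of all coding genes at that stage, and with at least 500 bp of each mark required there was none.

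Inside KDM2B, away from its ends, both marks recurred at fixed places that were chosen after their values were seen and are given as a description. A stretch of 1352 bp (chromosome 14, 31102248 to 31103599), 45127 bp from the lower-coordinate end, carried H3K4me3 in 14 of 18 libraries. H3K27me3 peaks recurred over the same place (31102953 to 31104726) in 6 of 12 libraries, both of the 4-cell, 8-cell and blastocyst stages, and in none of the MII, 2-cell and morula libraries. Their widths there were 1073 and 1506 bp in 4-cell embryos, 475 bp in 8-cell replicate 1 and 3497 and 4815 bp in blastocysts. In 8-cell replicate 2 there were 2 peaks, 1 of 406 bp that met the H3K4me3 stretch and 1 of 952 bp that began beyond it. The H3K4me3 peaks meeting that stretch were 3999 and 8103 bp wide in 8-cell embryos and 1256 and 2685 bp wide in blastocysts. The gene table gives no exons, so whether the stretch is exonic or intronic is not stated here.

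A second stretch of 2145 bp (chromosome 14, 31165360 to 31167504), 35589 bp from the upper-coordinate end, carried H3K4me3 in 17 of 18 libraries, all but 1-cell replicate 1, and H3K27me3 in none. In blastocysts its peaks had the authors' fold enrichment of 13.1 and 13.4, above the 8.00 and 9.02 of the peak at the gene's lower end in the same lists. In 4-cell embryos the fold was 4.41 and 3.87 in siKDM5BC libraries and 4.68 and 4.13 in untreated libraries. H3K4me3 more than 5 kb inside the KDM2B ends came to 8537 and 5162 bp in siKDM5BC embryos, against 5551 and 5843 bp in untreated 4-cell embryos, and the groups overlapped. The MII libraries had the least, 350 and 1226 bp, and the blastocyst libraries had 11711 and 14583 bp.

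**Figure D5:**
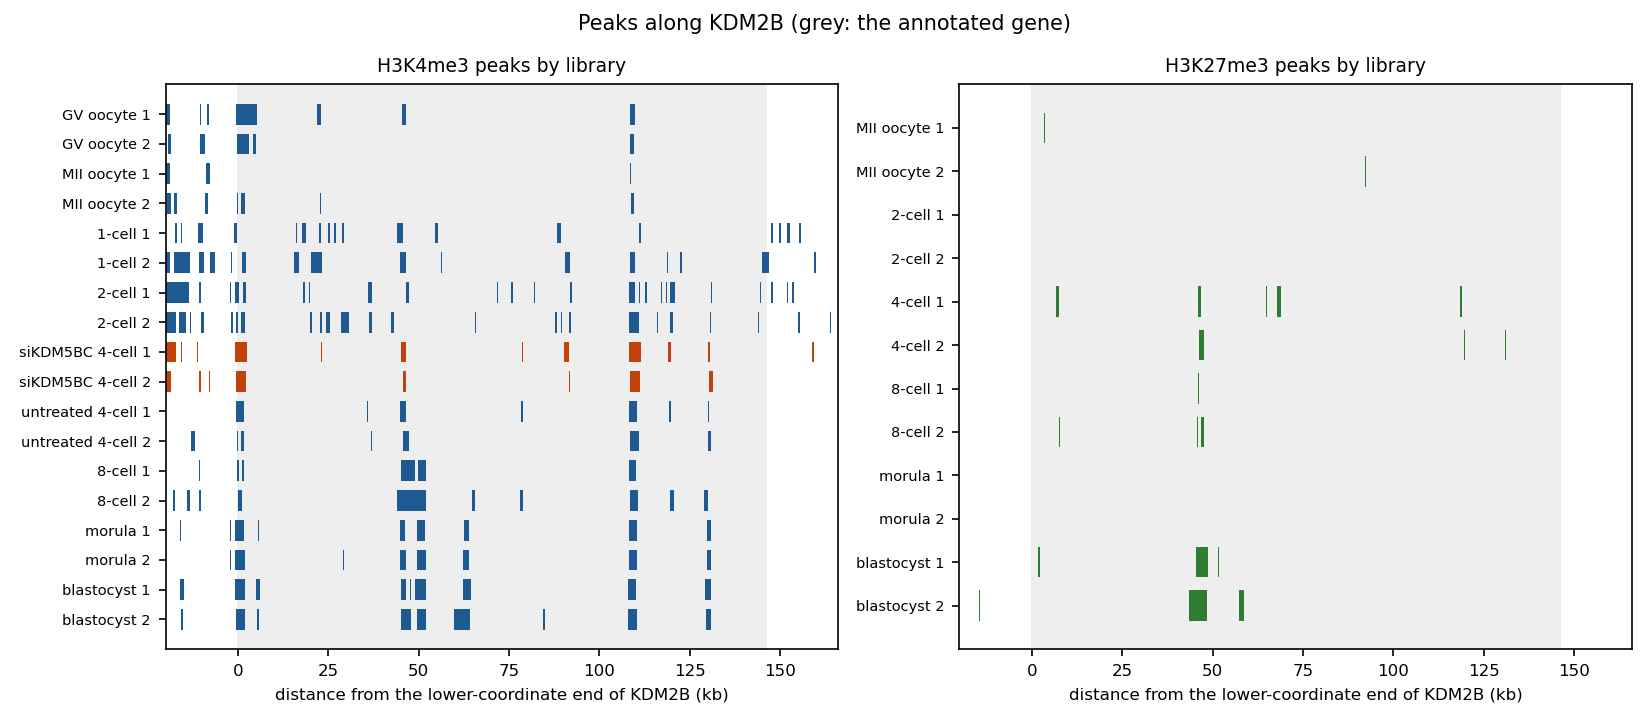
Peaks of H3K4me3 (left) and H3K27me3 (right) in each library (rows) by distance in kb from the lower-coordinate end of KDM2B (x axis), with the gene in grey. The H3K4me3 column that begins 108239 bp into the gene is present in 17 of 18 libraries, and the column that begins 45127 bp into the gene is shared by both marks in the 4-cell, 8-cell and blastocyst libraries.

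Inner H3K4me3 at KDM1B and KDM2A was longest in morulae or blastocysts. KDM1B had 5499 and 6812 bp of it in morulae and 5368 and 6712 bp in blastocysts, against 2500 bp or less in every earlier library. KDM2A had 3244 and 4973 bp in morulae and 7298 and 7353 bp in blastocysts, against 2900 bp or less in every earlier library. In the siKDM5BC libraries KDM1B had 420 and 0 bp and KDM2A 1823 and 607 bp, against 0 and 0 bp and 1615 and 0 bp in the untreated 4-cell libraries. By stage mean, KDM2B was also longest in blastocysts (13147 bp), overlapping the 8-cell libraries, while KDM5A, KDM1A and KDM5B were longest in 1-cell or 2-cell embryos. KDM5A had 3171 and 5161 bp in 1-cell embryos and 0 in morulae and blastocysts, and KDM1A had 3830 and 2403 bp in 1-cell embryos and 0 in blastocysts. KDM5B had 5588 and 4849 bp in 2-cell embryos and 3644 and 2465 bp in blastocysts. No 1-cell or 2-cell inner peak of KDM5A, KDM1A or KDM5B reached a −log10 q of 3. The highest was 2.31, at KDM5B in 2-cell replicate 1. Few peaks of those lists reached that cut anywhere, against 40.9% or more in the morula and blastocyst lists. Whether the longer early lengths reflect the stage or the peak calling was not tested. KDM5C had no inner peak in any library but 1 of the 8-cell libraries (244 bp).

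Over the 16 untreated H3K4me3 libraries, the coding genes whose log2 covered length ran most like that of KDM5B were MAML1 (Pearson r = 0.96), YIPF5 (0.95) and LOC110259671 (0.95), all on chromosome 2. The median r over the 18190 other genes was 0.51, and 1791 of them were above 0.8, so a high r with KDM5B was common. For KDM5C they were ERC2 (0.93, chromosome 13), IFT140 (0.93, chromosome 3) and PRPS2 (0.92, chromosome X), with a median of 0.25 and 289 genes above 0.8. Among the members, KDM5B ran most like KDM2A (0.78) and KDM5C most like KDM1B (0.85), and KDM5B and KDM5C had an r of 0.49 with each other. Each r is over the same libraries, which share their list lengths, and is a description.

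Of 31 partners of these enzymes, such as CoREST, SIN3 and PRC1.1 subunits, 30 were tested, and 9 rose and none fell in siKDM5BC against untreated 4-cell embryos (median log2 difference 1.09, against 0.90 over all genes), a share near the 30.8% of all genes, while scaled to covered length 1 rose and 10 fell and without untreated replicate 2 only 1 rose. GFI1B, a repressor that recruits KDM1A, had 11932 and 10577 bp in siKDM5BC embryos, against 611 and 1322 bp in untreated embryos, a log2 difference of 3.04 (SE 0.470, limma adjusted p = 0.0019). The PRC1.1 subunit gene BCOR had 13705 and 11920 bp in siKDM5BC and 2543 and 3172 bp in untreated embryos (1.99, limma adjusted p = 0.0241). SIN3B, a scaffold of histone deacetylase complexes, had 3784 and 4896 bp in siKDM5BC and 1224 and 568 bp in untreated embryos (1.83, limma adjusted p = 0.00498). GFI1B was the partner that stayed called in both of those alternatives (log2 difference 1.38 when scaled, 3.40 without the library), and BCOR and SIN3B were called in neither. Of the partners, 2 fell and none rose in 4-cell against 2-cell embryos, GFI1B (−2.37) and SIN3B (−1.41), beside 12.7% of all genes called (72 rose and 2249 fell). When scaled 10 rose and GFI1B alone fell, beside 20.4% of all genes called (3159 rose and 567 fell). Without 4-cell replicate 2 the log2 differences were −2.73 for GFI1B and −1.07 for SIN3B. These are sizes only, since 1 library is left in that group, and they do not show that the falls held. Across stages 11 of 30 changed in H3K4me3, beside 51.5% of all genes, and 13 of 17 in H3K27me3, beside 65.3%.

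Among 16 H3K4 methyltransferase genes and subunits tested, 5 rose and none fell in siKDM5BC embryos (median 0.98, against 0.90 over all genes), again near the 30.8% of all genes, while when scaled none rose and 5 fell, and without untreated replicate 2 none passed. The largest was SETD7, encoding a lysine methyltransferase, with 10361 and 6549 bp in siKDM5BC, against 2471 and 2102 bp in untreated embryos (log2 difference 1.65, limma adjusted p = 0.00473). SMYD3 followed with 4345 and 3431 bp in siKDM5BC, against 1696 and 717 bp in untreated embryos (1.42, limma adjusted p = 0.0134). KMT2C had 10599 and 10102 bp in siKDM5BC, against 4850 and 3355 bp in untreated embryos (1.26, limma adjusted p = 0.0385). In 4-cell against 2-cell embryos 3 of the 16 fell, SETD7 (−1.62), the core subunit gene RBBP5 (−1.35) and SMYD3 (−1.23), beside 12.7% of all genes called. When scaled none of the 16 fell and 6 rose, beside 20.4% of all genes called (3159 rose and 567 fell). Without 4-cell replicate 2 the log2 differences shrank to −1.53 for SETD7, −1.25 for RBBP5 and −0.81 for SMYD3. These are sizes only, since 1 library is left in that group, and they do not show that the falls held. Across stages 9 of 16 changed in H3K4me3 (all genes 51.5%) and 4 of 9 in H3K27me3 (all genes 65.3%). Of 16 other lysine demethylase genes tested, 1 rose in siKDM5BC embryos, HR, beside 30.8% of all genes called. HR had 8568 and 10136 bp in siKDM5BC, against 2948 and 1496 bp in untreated embryos (1.90, limma adjusted p = 0.0245). Its log2 difference shrank to 0.12 when scaled, where it did not pass. Leaving out untreated replicate 2 gave 1.51, a size only, since 1 library is left in that group and no call is read from it. None of these genes passed between the 4-cell and 2-cell stage by limma, beside 12.7% of all genes. When scaled 8 rose, beside 3159 of the 18229 genes tested. Across stages 8 of 16 changed in H3K4me3 (all genes 51.5%) and 7 of 9 in H3K27me3 (all genes 65.3%).

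Genes of cumulus and granulosa cells, which surround the oocyte and could be carried along, were covered over 27739 and 25005 bp in sum in the siKDM5BC libraries, against 11761 and 8856 bp in the untreated 4-cell libraries, over 11 genes found of 13 listed. FSHR and CYP19A1 were at 0 in all 4. The median over all coding genes was 3333 and 2981 bp in the siKDM5BC libraries, against 1630 and 1005 bp in the untreated ones. Of all genes tested 30.8% were called, with a median log2 difference of 0.90, and the median of this list was 0.81. Of the 10 tested, 1 rose, the steroidogenic enzyme gene HSD3B1 (5112 and 6614 bp, against 489 and 688 bp, log2 difference 2.54, limma adjusted p = 0.014), a call lost when scaled or without untreated replicate 2, and the part of such cells in the results was not tested. Across stages 4 of 10 changed in H3K4me3 (all genes 51.5%) and all 3 tested in H3K27me3 (all genes 65.3%).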

How the data were processed

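Per the submitters' processing notes, reads were handled with Bowtie2 2.4.1 and MACS2 on the build susScr11; its version, any input control and the calling threshold are not given in the sources used here. As processed data the authors deposited 1 broad peak list per library, with peak positions, a fold enrichment ratio and −log10 p and −log10 q values per peak, which are the authors' and were used here only to filter or describe peaks. Each list was called on its own library, and read depth is not stated in the lists.

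Chromosomes 1 to 18 and X entered, and Y and unplaced scaffolds were left out. Gene ends came from the RefSeq table of the same assembly (Sscrofa11.1), which gives no strand. For each of 19484 protein-coding genes, the bp covered by peaks within 5 kb of either end were summed and analysed as log2(bp + 500), so differences of short coverage are understated. Genes covered in at least 2 libraries were fitted with limma 3.58.1 (R 4.3.3, intensity-dependent trend), all H3K4me3 libraries sharing one estimate of spread in the contrasts, two-sided, with Benjamini-Hochberg adjustment over all genes tested and a threshold of 0.05. The procedure was run on simulated data with independent noise and no difference in list length between libraries. That run therefore does not check how such differences affect the calls. The fit of siKDM5BC against untreated and that of 4-cell against 2-cell used all 18 H3K4me3 libraries. Peaks joined, stricter peaks, other windows, pseudocounts and filters, scaling to covered length, a replicate block and each library left out were tried as alternatives; the fuller of the 2 windows was added after the data were seen, as were the related lists scaled or without 1 library. The 7 genes, the related lists and the tests were chosen with earlier results of these data known.

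Genes named from the related lists are the 3 with the largest rise and the 3 with the largest fall among those past the threshold in each contrast. Genes most like KDM5B and KDM5C are the 3 with the highest Pearson r. The stretches inside KDM2B were chosen after their values were seen, as places of at least 500 bp with a peak in 9 or more H3K4me3 or 4 or more H3K27me3 libraries.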

Additional observations from a re-analysis of the deposited data

How the results depend on the processing

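With windows of 2.5 kb, 1 of the 7 genes (KDM5C) changed in H3K4me3 across stages, beside 43.4% of the 17670 genes tested, and with −log10 q of 3 or more all 7 did, beside 14513 of 15927 (91.1%). Leaving out 1 library gave 3 to 6 members and 6398 to 11823 genes. For H3K27me3 across stages the count of genes was 1573 with coverage in at least 6 libraries, 1033 with −log10 q of 3 or more and 3869 with fold 3.5 or more, settings in which no member could be tested, and 0 to 1 members and 5202 to 7055 genes without 1 library. Members with both marks fell to 0 with 500 bp required of each.

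In siKDM5BC against untreated 4-cell embryos, 2 members were called with −log10 q of 3 or more and 3 when scaled to covered length. The genes called were 3350 with windows of 2.5 kb, 2843 with −log10 q of 3 or more, 440 with fold 3.5 or more, 3988 when scaled (535 up, 3453 down), and 637 to 7386 without 1 library (637 without untreated replicate 2, 1219 and 2140 without siKDM5BC replicate 1 and 2), with 0 to 1 members. Scaling reversed KDM5A (−1.23), KDM5B (−1.09), KDM5C (−1.24), KDM1A (−1.52), KDM1B (−1.13), KDM2A (−1.68) and KDM2B (−0.93). KDM2A also reversed with −log10 q of 3 or more (−0.28) and without untreated 4-cell replicate 2 (−0.10, highest 0.44 without replicate 1).

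In 4-cell against 2-cell embryos, 4 members were called with −log10 q of 3 or more, 1 with fold 3.5 or more, 2 when scaled, and 0 to 1 without 1 library. The genes called were 1020 with windows of 2.5 kb, 6719 with −log10 q of 3 or more (6717 up, 2 down), 589 with fold 3.5 or more, 3726 when scaled (3159 up, 567 down), and 145 to 3888 without 1 library (194 and 890 without 2-cell replicate 1 and 2, 145 without 4-cell replicate 2). With −log10 q of 3 or more KDM5A (1.96), KDM5B (2.81), KDM1A (2.62), KDM2A (3.07) and KDM2B (1.88) reversed, with fold 3.5 or more KDM5A (0.60), KDM1A (2.62), KDM2A (0.95) and KDM2B (0.11), and when scaled KDM5A (0.11), KDM5B (0.51), KDM1A (0.96), KDM2A (1.28) and KDM2B (0.52). KDM1A (0.052) and KDM2A (0.17) reversed with the fuller of the 2 windows, and KDM2A with windows of 2.5 kb (0.46) and without 4-cell replicate 2 (0.18, lowest −0.35 without replicate 1). The cause of these changes was not tested, beyond the fewer peaks or libraries that the settings leave.

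Libraries of the same replicate number did not deviate together (r of −0.12 to 0.12 over 36 pairs of H3K4me3 groups and −0.05 to 0.08 over 15 pairs of H3K27me3 groups), so the numbers were not taken to pair them. With a replicate block 5228 genes passed in siKDM5BC against untreated embryos, 2051 in 4-cell against 2-cell, and 3 members across stages, KDM2B being lost. The remaining alternatives were classed as unchanged by loose rules. The 190 for counts stayed within a set fold of the reported count and were not always equal to it. The 624 for single genes and widths kept the call, and in contrasts the sign, or stayed close in width or count. The start end alone was not run, since the gene table gives no strand. The number of libraries, 2 per group, limits every value.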
